A study of Mus musculus with 9 samples.

Results

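The mouse mitochondrial genome is a small circular DNA, kept in many copies per cell, that encodes core proteins of oxidative phosphorylation together with the rRNAs and tRNAs needed to translate them. All genes that the deposited count table places on the chromosome MT are described here, 37 of the 56748 genes in the table: 13 that encode proteins, 2 that encode ribosomal RNAs (rRNAs) and 22 that encode transfer RNAs (tRNAs). They were followed in poly(A) RNA of whole liver from C57BL/6J males, all fed a high-fat diet for 20 weeks from 8 weeks of age and all 28 weeks old at the end. The formoterol group (5 libraries, coded M46, M47, M48, M49 and M50) received formoterol at 1 mg/kg by intraperitoneal injection each day during the last 4 weeks, and the vehicle group (4 libraries, M56, M58, M59 and M60) received DMSO on the same schedule. Formoterol activates beta-adrenergic receptors and is long-acting. No group on another diet entered the comparison, so the high-fat diet is common to both groups.

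Both strands of the mitochondrial genome are transcribed into long precursors, and the tRNAs that lie between the longer genes mark where the precursors are cut into single RNAs. The mRNAs are then polyadenylated, and their products are core subunits of the respiratory chain and of ATP synthase that work together with subunits encoded in the nucleus and imported. Hepatocytes are rich in mitochondria, and mitochondrial mRNAs are among the most abundant transcripts of the liver. Because poly(A) RNA was selected, the values below are of polyadenylated or otherwise captured RNA, and rRNAs and tRNAs are measured only as far as they were carried through that selection.

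The share of each library taken by mitochondrial genes was large and varied more among formoterol livers than among vehicle livers. In the formoterol libraries M46, M47, M48, M49 and M50 it was 16.4, 22.5, 18.1, 25.1 and 38.6% of all counts, against 28.4, 34.0, 29.98 and 23.4% in the vehicle libraries M56, M58, M59 and M60. Library M50 had the highest share of the 9 and M46 the lowest, and the groups overlapped. The means were 24.1 ± 8.78% in formoterol livers and 28.9 ± 4.37% in vehicle livers (SD, n = 5 and 4), a difference of −4.80 percentage points. Without M50 the formoterol mean was 20.5 ± 3.99% and the difference −8.41 points, and the groups still overlapped, with M49 above M60. Without M46 the difference was −2.86 points and without vehicle library M58 −3.12 points. Set against nuclear genes, there were 33.4 ± 17.3 mitochondrial counts per 100 nuclear counts in formoterol livers and 41.1 ± 8.64 in vehicle livers. In bulk tissue, fewer cells of a type and less RNA per cell cannot be told apart, so a share of this kind does not separate mitochondrial RNA per hepatocyte from the number of hepatocytes.

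**Figure D1:**
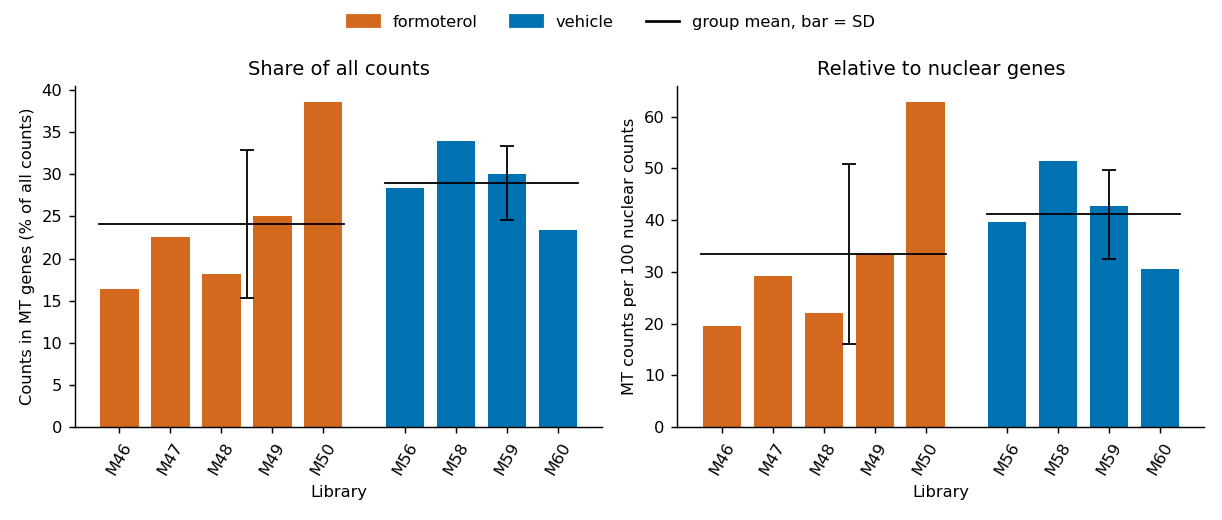
Share of all counts that fall in the 37 mitochondrial genes (left, %) and mitochondrial counts per 100 counts of nuclear genes (right), with 1 bar per library and the group mean and SD as black lines. Formoterol library M50 is the highest bar in both panels at 38.6% of all counts, M46 is the lowest at 16.4%, and the groups overlap.

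Libraries held 12336665 to 20339665 counts, of which 2168704 to 7849139 were mitochondrial, so counting error is small for every protein gene and large for most tRNAs. Levels are given as CPM (counts per 1000000 counts of the library) with TMM normalisation, which corrects for differences in library composition. No pair of libraries within a group agreed within sampling noise, with a chi-square per degree of freedom of 23.99 to 232. All 10 hepatocyte markers were tested, and their summed level was 104227 to 146036 CPM in formoterol livers and 89793 to 103059 CPM in vehicle livers, without overlap. Of 8 markers of skeletal and cardiac muscle, 5 (Acta1, Myh1, Myh6, Ckm and Mb) had 0 counts in every library, and the summed level of all 8 was at most 0.211 CPM. The marker sums of stellate cells and fibroblasts (120 to 513 CPM in formoterol livers, 352 to 504 CPM in vehicle livers), of macrophages and Kupffer cells (51.8 to 117 against 88.2 to 149.6 CPM) and of endothelial cells (47.9 to 161 against 113 to 145 CPM) overlapped, with M46 lowest in each of them.

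The 13 protein genes fell into a high and a low set when their counts were set against gene length, and all 5 genes with over 90% of their length in a near-identical nuclear copy were in the low set. The sets did not follow copy content throughout, since mt-Nd4, with 63.6% in an annotated copy, was high. Reads from the rest of mt-Nd4 also enter its level, so that level does not show how its copied part was counted. The low gene mt-Atp8 has 21.1% in an annotated copy. All of it lies at positions that match the chromosome 1 block of copies described below, where the remainder was not read. Level per length is given here as counts per kb of gene per 1000000 mitochondrial counts, the only scale on which levels of different genes are compared. The gene mt-Co1, which encodes the catalytic subunit of cytochrome c oxidase (complex IV), led with 257678 ± 11289 (SD, n = 9 libraries). It was followed by mt-Cytb, the cytochrome b of complex III, with 155513 ± 6363. Among the complex I subunits mt-Nd2, mt-Nd1, mt-Nd4, mt-Nd6 and mt-Nd5, the means were 103472, 89319, 65199, 43195 and 40227. The order of mt-Co1, mt-Cytb, mt-Nd2 and mt-Nd1 was separated by more than the spread between libraries except for mt-Nd2 and mt-Nd1, since mt-Nd2 ranged over 91426 to 113526 and mt-Nd1 over 81967 to 96117. The ranges of mt-Nd6 (32473 to 56292) and mt-Nd5 (24969.9 to 50158) also overlapped.

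Far lower levels per length were found for the other 6 protein genes. The ATP synthase subunit gene mt-Atp6 averaged 17954, the complex IV subunit genes mt-Co3 and mt-Co2 averaged 8201 and 5969, and the second ATP synthase subunit gene mt-Atp8 averaged 4890.3. The complex I subunit genes mt-Nd4l and mt-Nd3 were lowest, with means of 2479.5 and 1146. Expressed against mt-Co1 in the same library, the averages of these genes were 7.02% for mt-Atp6, 3.16% for mt-Co3, 2.31% for mt-Co2, 1.91% for mt-Atp8, 0.968% for mt-Nd4l and 0.438% for mt-Nd3. The highest library of any of them, 38512 for mt-Atp6 in vehicle liver M56, lay inside the range of mt-Nd5 and mt-Nd6 and below every library of the other high genes.

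**Figure D2:**
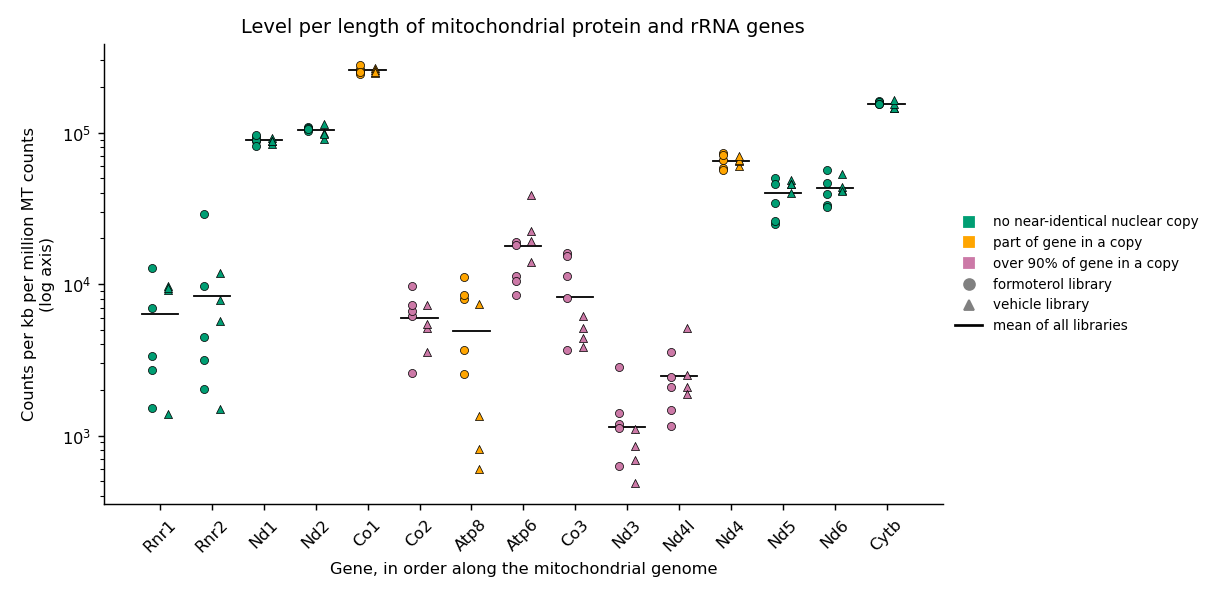
Level per length (counts per kb per 1000000 mitochondrial counts, log axis) of the 13 protein genes and 2 rRNAs in their order along the mitochondrial genome, with 1 point per library and the mean of all 9 as a line. Colour gives how much of a gene lies in an annotated near-identical nuclear copy, and the genes with over 90% in a copy (mt-Co2, mt-Atp6, mt-Co3, mt-Nd3, mt-Nd4l) average 1146 to 17954, against 40227 to 155513 for the 5 protein genes with none.

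Nuclear copies of mitochondrial DNA are inherited insertions that can be almost identical to the mitochondrial genome, and a read from a stretch that is identical in both cannot be assigned to either by its sequence. Each mitochondrial transcript was compared with all other transcripts of the GENCODE vM21 annotation (GRCm38), in which all 37 genes have the same length as in the deposited table. On chromosome 1, 7 annotated pseudogenes lie in 1 block, chr1:24650616-24655278 on the minus strand in the table's build mm39. Their order follows mitochondrial positions 6390 to 11042, and the distances between neighbours equal those on the mitochondrial genome in 5 of 6 cases (the remaining pair differs by 1 base, 74 against 73). Identity was 100% over the compared length for Gm28661 with mt-Co2 (681 bases), Gm10925 with mt-Atp6 (678), Gm28437 with mt-Co3 (783), Gm10222 with mt-Nd4l (294) and Gm28439 with the first 876 of 1378 bases of mt-Nd4. The 233 bases between Gm28661 and Gm10925 equal those between mt-Co2 and mt-Atp6, where mt-Tk and most of mt-Atp8 lie, but this stretch was not read here because it is in no annotated transcript. A further 14 copies elsewhere matched at 87.5 to 97.6% identity, the most counted of them, Gm13340, averaged 187 counts per library, and 8 were at 0 in every library.

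The first 60 bases of mt-Nd3 and of its copy, and 60 bases from the start of the stretch of mt-Co1 that has a copy, show how little there is to tell the pairs apart. They are given because the only base by which each copy differs from its gene over the aligned length is in them, written in capitals (sequences from GENCODE vM21, 5′ to 3′ on the strand of the mitochondrial gene).
mt-Nd3: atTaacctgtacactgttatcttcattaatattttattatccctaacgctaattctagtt
Gm28438: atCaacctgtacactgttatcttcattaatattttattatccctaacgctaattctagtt
mt-Co1: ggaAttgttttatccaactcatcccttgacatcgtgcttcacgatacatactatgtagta
Gm29216: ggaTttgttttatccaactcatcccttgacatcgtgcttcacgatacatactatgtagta
Counted from 1 at the 5′ end of the mitochondrial gene, the substitution in Gm28438 is T3C, the single difference in 345 bases, and that in Gm29216 is A1066T, the single difference in 483 bases. The capital bases are therefore the only ones in these stretches by which a read could be placed.

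The table also gives counts to these copies, which shows that some reads were assigned to chromosome 1. The 3 copies with the highest mean counts were Gm10925, Gm28437 and Gm28661. Gm10925, the copy of mt-Atp6, had 18187, 16468, 21332, 11987 and 32064 counts in the formoterol libraries M46 to M50, against 19637, 15658, 31908 and 14194 counts in the vehicle libraries M56 to M60. Depending on the library, that was 17.2 to 109% of the count of mt-Atp6 itself. For Gm28437 the count was 13.4 to 64.9% of that of mt-Co3, and for Gm28661 it was 19.3 to 74.5% of that of mt-Co2. For Gm10222 it was 22.6 to 104% of that of mt-Nd4l, and for Gm28438 9.69 to 119% of that of mt-Nd3. Gm28439 had 0.841 to 1.78% of the count of mt-Nd4, and Gm29216 had 0.0858 to 0.244% of that of mt-Co1. Those 2 genes lie only partly in a copy, so their counts include stretches that the copies lack. In mean counts, Gm28439 (4953) and Gm29216 (2114) lay above Gm10222 (1268) and Gm28438 (1011). With the copy's counts added to the gene's, genes with over 90% of their length in a copy reached at most 18.2% of the level per length of mt-Co1, for mt-Atp6 with Gm10925. That lies inside the ranges of the high genes mt-Nd5 (9.36 to 20.6%) and mt-Nd6 (11.6 to 23.1%). Reads counted to neither the gene nor its copy would be missing from such a sum. The part that read assignment plays in the low levels was not tested, and how reads with several matches were treated is not given in the sources used here. The values of mt-Co2, mt-Atp8, mt-Atp6, mt-Co3, mt-Nd3 and mt-Nd4l, and to a lesser degree of mt-Nd4 and mt-Co1, are for this reason uncertain.

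Neighbouring genes also overlap on the mitochondrial genome itself. The genes mt-Atp8 and mt-Atp6 share 43 bases and are translated from 1 mRNA, and mt-Nd4l and mt-Nd4 share 7 bases in the same way. The end of the first gene and the start of the second follow, with the shared bases in capitals (GENCODE vM21, 5′ to 3′).
mt-Atp8 to mt-Atp6: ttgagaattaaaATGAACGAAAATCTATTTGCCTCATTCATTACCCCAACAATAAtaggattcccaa
mt-Nd4l to mt-Nd4: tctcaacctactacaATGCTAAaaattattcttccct
In both, the start codon of the second gene lies inside the first, so a read over these bases belongs to both genes. On opposite strands, mt-Nd5 and mt-Nd6 share 14 bases. The strand setting of the counting is not given in the sources used here, so reads from a gene and from an RNA of the opposite strand cannot be told apart, and this applies to mt-Nd6, to the 8 tRNAs of the minus strand and to any gene they face.

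Across the comparison of formoterol with vehicle, no mitochondrial gene passed edgeR's quasi-likelihood test. Of the 37 members, 29 had enough counts to be tested (all 13 protein genes, both rRNAs and 14 tRNAs). With all 9 libraries 0 of the 29 passed at a Benjamini-Hochberg adjusted p under 0.05, as did 0% of all 13042 genes tested. At an unadjusted p under 0.05 there was 1 member, mt-Co3, against 14.6% of all genes tested. None of the 29 had groups that did not overlap, whereas 4.84% of all genes tested did. The median log2 fold change (formoterol over vehicle) was −0.003 for the 29 members and −0.01 for all genes tested. DESeq2 also called 0 of the 27 members to which it gave an adjusted p, against 2.79% of all genes given one.

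The 5 protein genes with no near-identical copy among annotated transcripts were all highest in M50 and lowest in M46. They encode cytochrome b and the complex I subunits mt-Nd1, mt-Nd2, mt-Nd5 and mt-Nd6, and they held 43.9 to 50.1% of all mitochondrial counts. The uncertainty of strand given above remains for mt-Nd6. Their shares of mitochondrial counts were not all steady, and that of mt-Nd5 ran from 4.55% in M46 to 9.15% in M49. The level of mt-Cytb was 31948, 43087, 35677, 39623 and 81814 CPM in the formoterol livers M46 to M50, against 42278, 57701, 50851 and 39841 CPM in the vehicle livers M56 to M60. For mt-Nd1, a subunit of the membrane arm of complex I next to the quinone site, the values were 15900.2, 19625, 16852, 20558 and 36220.5 CPM in formoterol livers and 22421, 27941, 24466 and 17829 CPM in vehicle livers. For mt-Nd2, a subunit of the proton-pumping membrane arm, they were 19839.8, 25452, 20837, 24866 and 50402 CPM in formoterol livers and 26231, 32746, 29404 and 24937 CPM in vehicle livers. In all of these genes M50 was the highest of the 9 libraries, M46 was the lowest, and the groups overlapped.

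For mt-Nd5, a pump subunit at the tip of the membrane arm, the values were 8037, 14680.3, 9363, 20447 and 38459 CPM in formoterol livers and 22392, 28977, 24102 and 15522 CPM in vehicle livers. For mt-Nd6, the only protein gene on the other strand, they were 3037, 4794, 3301, 6529.7 and 11167 CPM in formoterol livers and 7055, 7517, 6585 and 4502 CPM in vehicle livers. Library M50 was again highest in both, M46 and M48 were the lowest, and the groups overlapped. The log2 fold changes with their standard errors (SE) were −0.04 ± 0.26 for mt-Cytb, −0.09 ± 0.24 for mt-Nd1, −0.003 ± 0.25 for mt-Nd2, −0.32 ± 0.41 for mt-Nd5 and −0.15 ± 0.34 for mt-Nd6, with edgeR adjusted p of 0.765 to 0.996. These SEs leave room for changes of either sign, so the data do not show that the levels are alike. Scaling by library totals alone moved the median of all genes to −0.16, and the values of these genes on that scale, −0.18 to −0.49, are to be read against that shift.

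For most members the formoterol mean depended strongly on library M50. It was the highest library for 22 of the 29 tested members, 11 of them protein genes, and for the 5 genes with no near copy it stood at 1.99 to 3.20 times the median of the other formoterol libraries. Without M50, the log2 fold changes of these 5 genes were −0.33 to −0.81 with edgeR adjusted p of 0.193 to 0.335, none of which passed. Without it, 7 of the 29 members were at an unadjusted p under 0.05, all lower in formoterol livers, against 7.66% of all genes tested that were lower at that p in the same comparison. They were mt-Nd5 (−0.81 ± 0.29), mt-Nd6 (−0.55 ± 0.25), mt-Atp6 (−1.27 ± 0.32), mt-Nd4l (−1.07 ± 0.40), mt-Te (−0.57 ± 0.23), mt-Tm (−1.36 ± 0.38) and mt-Tw (−1.63 ± 0.55), with adjusted p of 0.147 to 0.279, so 0 passed the adjusted threshold. In each of these 7 genes M50 was the highest formoterol library, so leaving it out had to lower the formoterol mean. Because M50 was highest for most members, the 7 are also not independent results. Leaving out other libraries moved the changes of some of these genes towards 0. Without M46 and without M48, mt-Nd5 was at −0.15 and −0.17 and mt-Nd6 at −0.007 and −0.02, without vehicle library M58 they were at −0.18 and −0.07, and without vehicle library M56 mt-Atp6 was at −0.43. The median over the 29 members without M50 was −0.35, against −0.03 for all genes tested. The summed level of the 4 nuclear-retained RNAs Malat1, Neat1, Kcnq1ot1 and Meg3 was also highest in M50, at 679 CPM, while the other formoterol libraries lay between 282 and 458 CPM and the vehicle libraries between 281 and 598 CPM, and its part in these values was not tested.

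**Figure D3:**
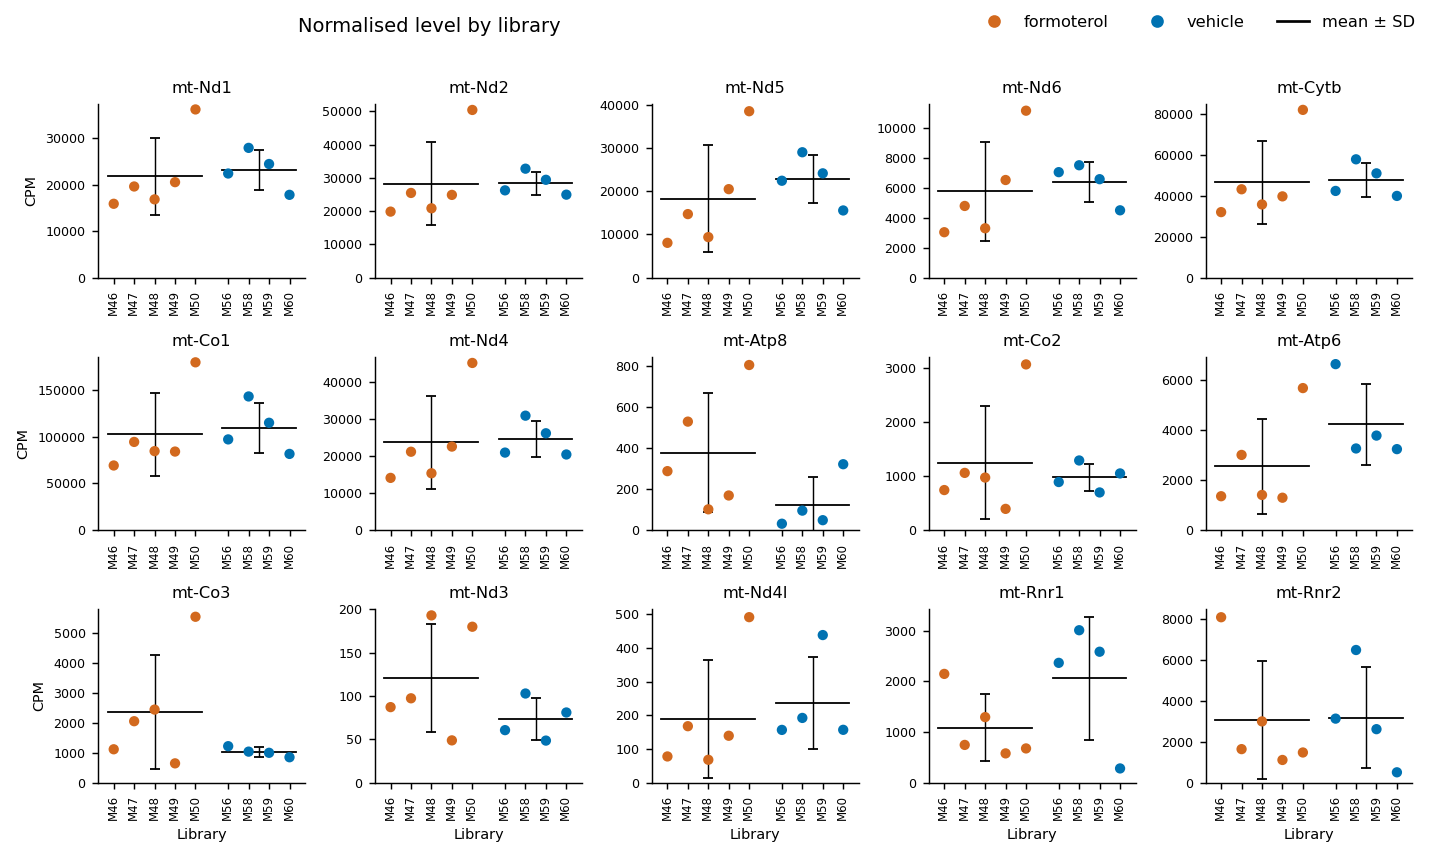
TMM-normalised level (CPM, linear axes from 0) of the 13 protein genes and 2 rRNAs in each library, formoterol livers on the left of each panel, with the group mean and SD in black (the SD of mt-Atp8 in vehicle livers runs below 0 and is cut off there). Formoterol library M50 is the highest point for 11 of the 13 protein genes, whereas the rRNAs are highest in other libraries, mt-Rnr2 in M46 and mt-Rnr1 in vehicle library M58.

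The genes mt-Co1 and mt-Nd4 lie partly in the chromosome 1 block and followed the same library pattern. Levels of mt-Co1 were 69309, 94598, 84713, 84257 and 180011 CPM in formoterol livers, against 97309.7, 143387, 115148 and 81735 CPM in vehicle livers (log2 fold change −0.09 ± 0.27 SE, adjusted p = 0.906 by edgeR). Levels of mt-Nd4, another pump subunit of complex I, were 14126, 21202, 15376, 22599 and 45229 CPM in formoterol livers, against 20972, 30961, 26201 and 20459 CPM in vehicle livers (−0.06 ± 0.30, adjusted p = 0.955). In both, M50 was the highest and M46 the lowest of the 9 libraries and the groups overlapped.

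Among the low genes, mt-Co3 and mt-Atp8 had the largest positive log2 fold changes of the protein genes and mt-Atp6 the most negative, although mt-Atp8 and mt-Atp6 share an mRNA. The level of mt-Co3, a core subunit of complex IV, was 1116, 2057, 2447, 644 and 5559.8 CPM in formoterol livers and 1220.0, 1037, 998 and 849 CPM in vehicle livers. Of 5, 3 formoterol values exceeded every vehicle value, M46 lay inside the vehicle range and M49 below it. The log2 fold change was 1.20 ± 0.54 SE (edgeR unadjusted p = 0.0493, adjusted p = 0.341), and 0.60 ± 0.35 without M50. With the counts of its copy Gm28437 added it was 0.97 (adjusted p = 0.34).

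The level of mt-Atp8 was 287, 528, 101, 168 and 803 CPM in formoterol livers and 31.0, 94.7, 48.2 and 321 CPM in vehicle livers. Vehicle library M60 lay above 3 formoterol libraries, and the log2 fold change was 1.61 ± 0.89 SE (edgeR adjusted p = 0.457). The level of mt-Atp6 was 1356, 3010.2, 1407, 1296 and 5687 CPM in formoterol livers and 6646, 3269, 3785 and 3242 CPM in vehicle livers. Here M50 alone of the formoterol livers lay inside the vehicle range, the other 4 lay below it, and the log2 fold change was −0.73 ± 0.46 SE (edgeR adjusted p = 0.501). With the counts of Gm10925 added, the change of mt-Atp6 was −0.49. Both genes encode membrane subunits of ATP synthase, and mt-Atp6 forms part of the path that protons take through it.

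For mt-Co2, the complex IV subunit that receives electrons from cytochrome c, the levels were 741, 1059, 973, 393 and 3069 CPM in formoterol livers and 890.3, 1289.6, 697 and 1049.5 CPM in vehicle livers. For mt-Nd3, a small complex I subunit, they were 87.1, 97.3, 193, 48.7 and 179.8 CPM in formoterol livers and 60.5, 103, 48.4 and 80.9 CPM in vehicle livers. For mt-Nd4l, another small complex I subunit, they were 77.6, 168, 67.7, 139 and 492 CPM in formoterol livers and 157, 192, 438 and 157 CPM in vehicle livers. The groups overlapped for each of these genes. Log2 fold changes were 0.35 ± 0.51 SE for mt-Co2, 0.73 ± 0.39 for mt-Nd3 and −0.32 ± 0.63 for mt-Nd4l (edgeR adjusted p of 0.417 to 0.86), and that of mt-Co2 was −0.32 without M50. With the counts of Gm28438 added, mt-Nd3 was at 1.14 ± 0.48 (adjusted p = 0.314).

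The limma-voom method with sample quality weights, which gives libraries far from their group less weight, called 2 of the 29 members, mt-Co3 (log2 fold change 1.00, adjusted p = 0.0398) and mt-Atp8 (2.50, adjusted p = 0.0149), both higher in formoterol livers, against 10.5% of all genes tested. It gave M47 a weight of 3.51 and the remaining formoterol libraries 0.369 to 0.665, so the formoterol value there rests mainly on M47. In M47, mt-Co3 and mt-Atp8 stood at 2057 and 528 CPM, above every vehicle library. Both genes lie wholly or partly in the chromosome 1 block, and edgeR, DESeq2 and limma-voom without these weights called neither.

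**Figure D4:**
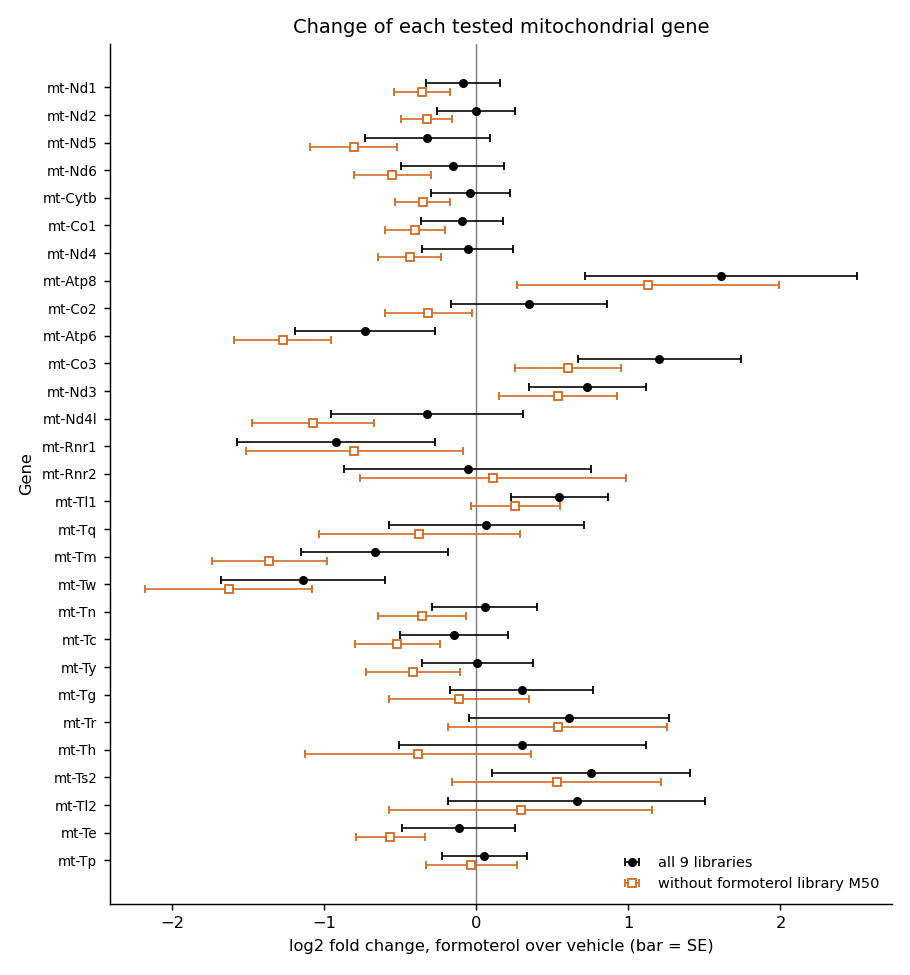
Log2 fold change (formoterol over vehicle, bar = SE) of the 29 tested mitochondrial genes with all 9 libraries (black circles) and without formoterol library M50 (orange squares). No value passes the adjusted threshold in either fit, and without M50 the 5 protein genes with no near copy sit at −0.33 to −0.81.

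Setting each gene against the total of mitochondrial counts lowered the variation between libraries of the 5 genes with no near copy in both groups. For the 5 genes with over 90% in a copy it was lower for 4 of 5 in formoterol livers, all but mt-Nd3, and for 1 of 5, mt-Nd4l, in vehicle livers. The coefficient of variation of the 5 genes with no near copy was 37.9 to 67.8% in formoterol livers and 12.3 to 24.5% in vehicle livers on the CPM scale. As shares of mitochondrial counts it was 1.82 to 31.2% in formoterol livers and 3.63 to 12.8% in vehicle livers. For the 5 genes with over 90% in a copy it was 51.5 to 92.4% in formoterol livers and 14.9 to 57.6% in vehicle livers on the CPM scale, and 35.1 to 57.7% and 20.4 to 52.1% as shares. The 5 genes with no near copy made up 43.9 to 50.1% of the mitochondrial counts, against 1.13 to 3.54% for those with over 90% in a copy. Dividing by a total steadies the genes that largely make it up, so the contrast between the sets was in part fixed in advance. The share of mt-Cytb was the steadiest in formoterol livers (18.1 ± 0.33% of mitochondrial counts, against 17.5 ± 1.01% in vehicle livers), and that of mt-Co1 was 39.96 ± 2.11% in formoterol livers and 39.6 ± 1.45% in vehicle livers.

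The rRNAs form the core of the mitochondrial ribosome, mt-Rnr1 in its small and mt-Rnr2 in its large subunit, and they did not follow the mRNAs across libraries. Levels of mt-Rnr2 were 8101, 1638, 2997, 1108 and 1474 CPM in formoterol livers and 3133, 6495, 2616 and 503 CPM in vehicle livers. Levels of mt-Rnr1 were 2146, 743, 1293, 576 and 674 CPM in formoterol livers and 2364, 3008, 2584 and 279 CPM in vehicle livers. Vehicle library M60 was the lowest of all 9 for both, and M46 in the formoterol group and M58 in the vehicle group were the highest. The log2 fold changes were −0.06 ± 0.81 SE for mt-Rnr2 and −0.92 ± 0.65 for mt-Rnr1 (edgeR adjusted p = 0.984 and 0.559). In level per length, mt-Rnr2 averaged 8359 and mt-Rnr1 6319, which is 3.23 and 2.44% of mt-Co1 in the same library, in RNA selected for poly(A).

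Within the mitochondrial transcripts, 6 ratios that do not depend on library scaling were compared by a two-sided exact permutation test, which with 5 against 4 libraries has 126 arrangements and a smallest possible p of 0.00794. The balance of the rRNAs, log2 of mt-Rnr2 over mt-Rnr1, was 1.92, 1.14, 1.21, 0.94 and 1.13 in formoterol livers and 0.41, 1.11, 0.02 and 0.85 in vehicle livers. All formoterol values except that of M49 exceeded every vehicle value. The means were 1.27 ± 0.38 in formoterol livers and 0.60 ± 0.48 in vehicle livers, a difference of 0.67 (exact permutation p = 0.0317, 0.19 after Benjamini-Hochberg adjustment over the 6 ratios), which did not pass the adjusted threshold. The rRNAs together made up 5.81, 1.02, 2.19, 0.753 and 0.465% of mitochondrial counts in formoterol livers and 2.17, 2.75, 1.80 and 0.370% in vehicle livers, with M46 highest and M60 lowest. Their mean shares were 2.05 ± 2.20% in formoterol livers and 1.77 ± 1.01% in vehicle livers (exact permutation p = 0.873), and without M46 the difference changed sign to −0.67 percentage points.

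The other ratios differed by less. The tRNAs made up 0.140 ± 0.038% of mitochondrial counts in formoterol livers and 0.124 ± 0.029% in vehicle livers (exact permutation p = 0.516). The log2 ratio of mt-Nd6, read from the other strand, to the other protein genes was −5.50 ± 0.32 in formoterol livers and −5.36 ± 0.19 in vehicle livers (exact permutation p = 0.5). For the 7 complex I genes over the 3 complex IV genes it was −0.14 ± 0.21 in formoterol livers and −0.06 ± 0.08 in vehicle livers (exact permutation p = 0.532). For mt-Nd5 and mt-Cytb, at the far end of the heavy-strand precursor, over mt-Nd1 and mt-Nd2, near its start, it was 0.33 ± 0.12 in formoterol livers and 0.44 ± 0.06 in vehicle livers (exact permutation p = 0.135, adjusted 0.405).

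The tRNAs carry amino acids to the mitochondrial ribosome, and few of their reads were captured. The 4 tRNAs mt-Tf, mt-Tv, mt-Ts1 and mt-Td had 0 counts in every library, and mt-Tk, mt-Tt, mt-Ti and mt-Ta had at most 12 counts in any library and were not tested. A count of 0 allows a level of up to 3 counts, which in the library with the fewest mitochondrial counts is 0.000138% of them, and this limit covers counting error only. Of the 5 tRNAs at positions that match the chromosome 1 block, mt-Ts1 and mt-Td were at 0, mt-Tk had at most 1 count, mt-Tg had 12 to 51 counts and mt-Tr 5 to 40 counts per library, while mt-Tf and mt-Tv, also at 0, lie outside it. The most counted were mt-Tp, the proline tRNA at the end of the gene order, and mt-Te, the glutamate tRNA between mt-Nd6 and mt-Cytb, both on the minus strand. Their sequences follow because they carry most tRNA counts, and mt-Tl1, the leucine tRNA between mt-Rnr2 and mt-Nd1, stands beside them as a tRNA of the plus strand (GENCODE vM21, whole gene, 5′ to 3′ on its own strand; MT positions 15356 to 15422, 14071 to 14139 and 2676 to 2750).
mt-Tp: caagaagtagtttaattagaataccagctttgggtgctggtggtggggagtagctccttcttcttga
mt-Te: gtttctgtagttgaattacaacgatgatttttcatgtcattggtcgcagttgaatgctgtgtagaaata
mt-Tl1: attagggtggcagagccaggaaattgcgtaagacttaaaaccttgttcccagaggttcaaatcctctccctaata
Such genes are shorter than a usual library fragment, and reads of a longer RNA that runs through them are counted to them as well, so a level of a tRNA gene here need not be that of the finished tRNA.

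Levels of mt-Tp were 287, 254, 153, 156 and 274 CPM in formoterol livers and 125, 200.3, 346 and 194 CPM in vehicle livers. Levels of mt-Te were 28.6, 55.0, 28.1, 53.3 and 115 CPM in formoterol livers and 56.3, 73.1, 54.3 and 59.1 CPM in vehicle livers. Levels of mt-Te were highest in M50 and lowest in M46 and M48, as were those of mt-Nd6, which borders it on the same strand. The same held for mt-Cytb, its neighbour on the other strand, and for mt-Nd1, mt-Nd2, mt-Nd4 and mt-Nd5, so the pattern is not particular to that strand. The groups overlapped for both mt-Tp and mt-Te. Levels of mt-Tc, the cysteine tRNA, were 11.8, 12.1, 17.5, 16.6 and 35.1 CPM in formoterol livers and 34.5, 19.0, 14.9 and 14.0 CPM in vehicle livers. Levels of mt-Tl1 were 3.34, 3.90, 7.20, 6.53 and 10.9 CPM in formoterol livers and 3.96, 4.36, 3.81 and 5.38 CPM in vehicle livers. Log2 fold changes were 0.05 ± 0.28 SE for mt-Tp, −0.12 ± 0.37 for mt-Te, −0.14 ± 0.35 for mt-Tc and 0.55 ± 0.32 for mt-Tl1 (edgeR adjusted p of 0.453 to 0.953).

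The most negative tRNA was mt-Tw, for tryptophan, with 0.814, 1.06, 1.75, 0.244 and 2.82 CPM in formoterol livers and 4.31, 3.37, 2.73 and 1.43 CPM in vehicle livers (log2 fold change −1.14 ± 0.54 SE, adjusted p = 0.352 by edgeR). Its counts were 5 to 74 per library. Its neighbour on the other side of mt-Nd2, mt-Tm for methionine, had 1.95, 2.34, 2.46, 0.731 and 7.41 CPM in formoterol livers and 6.23, 4.69, 4.10 and 3.96 CPM in vehicle livers (−0.67 ± 0.48, adjusted p = 0.555). In both, most formoterol libraries lay below the vehicle range or at its lower end, and M50 lay inside or above it. The largest positive value was that of mt-Ts2, a serine tRNA, with 1.30, 5.67, 5.71, 1.95 and 6.59 CPM in formoterol livers and 2.27, 3.54, 0.244 and 4.12 CPM in vehicle livers (0.75 ± 0.65, adjusted p = 0.637).

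The 3 tRNAs that follow mt-Nd4, mt-Th for histidine, mt-Ts2 and mt-Tl2 for leucine, were all lowest of the vehicle livers in M59, and mt-Th and mt-Tl2 were lowest of the formoterol livers in M49. For mt-Th the levels were 1.71, 1.98, 5.84, 0.292 and 9.77 CPM in formoterol livers and 4.02, 3.87, 0.684 and 4.22 CPM in vehicle livers. For mt-Tl2 they were 4.07, 11.8, 11.6, 1.02 and 17.2 CPM in formoterol livers and 2.74, 10.04, 1.12 and 9.45 CPM in vehicle livers. Among the tRNAs of the minus strand between mt-Nd2 and mt-Co1, mt-Tn for asparagine had 3.82, 3.83, 5.58, 3.22 and 10.6 CPM in formoterol livers and 6.29, 5.43, 5.91 and 3.27 CPM in vehicle livers. Next to it, mt-Ty for tyrosine had 5.45, 3.05, 5.06, 2.53 and 10.6 CPM in formoterol livers and 4.83, 7.16, 4.15 and 5.23 CPM in vehicle livers. In both, M50 was highest. The remaining tRNAs, mt-Tg for glycine, mt-Tq for glutamine and mt-Tr for arginine, stayed at or under 3.00 CPM. For mt-Tg the levels were 0.976, 0.921, 1.69, 1.02 and 3.00 CPM in formoterol livers and 1.86, 1.07, 1.03 and 1.00 CPM in vehicle livers. For mt-Tq they were 0.163, 1.21, 0.259, 1.90 and 2.47 CPM in formoterol livers and 1.22, 0.905, 0.976 and 1.53 CPM in vehicle livers. Those of mt-Tr were 0.488, 0.780, 2.59, 0.439 and 1.35 CPM in formoterol livers and 0.408, 1.07, 0.244 and 1.27 CPM in vehicle livers. No tRNA separated the groups, and edgeR adjusted p for the 14 tested lay between 0.352 and 0.994.

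Transcription and upkeep of the mitochondrial genome depend on nuclear genes, which were followed in lists. Of 12 genes of mitochondrial transcription, 0 were at an unadjusted p under 0.05 in either direction, against 14.6% of all genes tested. Their median log2 fold change was 0.13. Polrmt, the mitochondrial RNA polymerase, averaged 8.86 ± 1.72 CPM in formoterol livers and 10.7 ± 1.54 CPM in vehicle livers (−0.27 ± 0.19 SE). Tfam, which packs mitochondrial DNA and starts its transcription, averaged 30.7 ± 3.09 CPM in formoterol livers and 31.7 ± 4.04 CPM in vehicle livers (−0.05 ± 0.14). The initiation factor Tfb2m was at 0.13 ± 0.16, the elongation factor Tefm at 0.20 ± 0.22, Mrpl12, a ribosomal protein that also binds the polymerase, at 0.36 ± 0.18, and Mterf1a, a transcription termination factor, at 0.47 ± 0.32 (edgeR adjusted p of 0.389 to 0.905 for these 6 genes).

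In the list for replication and upkeep of mitochondrial DNA, 3 of 17 genes were higher and 0 were lower at an unadjusted p under 0.05, against 9.03% of all genes tested that were higher at that p. They were Ssbp1, the single-strand binding protein of mitochondrial DNA (34.3 ± 6.73 CPM in formoterol livers, 22.9 ± 3.92 CPM in vehicle livers), Polg2, the accessory subunit of the mitochondrial DNA polymerase (7.07 ± 0.738 CPM in formoterol livers, 4.62 ± 0.94 CPM in vehicle livers), and Slc25a33, a pyrimidine nucleotide carrier (8.85 ± 3.43 CPM in formoterol livers, 5.19 ± 1.72 CPM in vehicle livers), with edgeR adjusted p of 0.185 to 0.261. The catalytic subunit Polg was at −0.22 ± 0.18 SE and the helicase Twnk at 0.06 ± 0.18. In the list for RNA processing and decay, 3 of 27 genes were higher and 0 lower at that p. Hsd17b10, a subunit of the enzyme that cuts tRNA 5′ ends from the precursor, averaged 351 ± 105 CPM in formoterol livers and 189 ± 38.4 CPM in vehicle livers (log2 fold change 0.90 ± 0.22, adjusted p = 0.159). Lrpprc, which stabilises mitochondrial mRNAs, averaged 79.7 ± 9.36 CPM in formoterol livers and 63.3 ± 5.51 CPM in vehicle livers (0.33 ± 0.14, adjusted p = 0.286), while its partner Slirp was at 0.18 ± 0.33, the mitochondrial poly(A) polymerase Mtpap at 0.12 ± 0.20 and the rRNA methyltransferase Mrm3 at 0.52 ± 0.22.

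Among 11 tested nuclear regulators of mitochondrial gene expression, Esrra, the estrogen-related receptor alpha, was higher (23.1 ± 0.634 CPM in formoterol livers, 16.1 ± 3.73 CPM in vehicle livers, log2 fold change 0.52 ± 0.17 SE, adjusted p = 0.194 by edgeR) and the coactivator Pprc1 was lower (3.07 ± 0.625 CPM in formoterol livers, 5.22 ± 0.998 CPM in vehicle livers, −0.75 ± 0.26, adjusted p = 0.214) at an unadjusted p under 0.05. Neither passed the adjusted threshold, and 14.6% of all genes tested were at that unadjusted p in either direction. The coactivator Ppargc1a, often called the master regulator of mitochondrial biogenesis, averaged 7.17 ± 1.40 CPM in formoterol livers and 7.07 ± 1.90 CPM in vehicle livers (0.02 ± 0.23, adjusted p = 0.977). The thyroid hormone receptor Thra was at −0.49 ± 0.23 (adjusted p = 0.347).

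No nuclear partner of the mitochondrially encoded subunits passed edgeR's adjusted threshold with all 9 libraries, but many had a small unadjusted p. At an unadjusted p under 0.05, 25 of 37 nuclear complex I genes were higher and none lower (median log2 fold change 0.54), as were 6 of 9 for complex III (0.57), 8 of 11 for complex IV (0.57), 12 of 17 for ATP synthase (0.47) and 31 of 77 for mitochondrial ribosomal proteins (0.34), against 9.03% of all genes tested. In complex II, which has no mitochondrially encoded subunit, 1 of 4 was higher (Sdhb, at 0.50 ± 0.21 SE), with Sdha at −0.16 ± 0.17 and Sdhd at 0.15 ± 0.18. Examples with the smallest p were Ndufa11 of complex I (47.02 ± 7.38 CPM in formoterol livers, 29.1 ± 6.82 CPM in vehicle livers), Uqcr10 of complex III (63.7 ± 13.2 CPM in formoterol livers, 37.7 ± 9.06 CPM in vehicle livers), Cox6b1 of complex IV (227 ± 47.4 CPM in formoterol livers, 141 ± 31.2 CPM in vehicle livers), Atp5h of ATP synthase (323 ± 69.0 CPM in formoterol livers, 189 ± 42.8 CPM in vehicle livers) and Mrpl14 of the mitochondrial ribosome (50.3 ± 11.9 CPM in formoterol livers, 29.6 ± 4.74 CPM in vehicle livers), with edgeR adjusted p of 0.159 to 0.173. Without vehicle library M56, the lowest for these genes, the counts were 15 for complex I, 5 for complex III, 6 for complex IV, 7 for ATP synthase and 15 for the ribosomal proteins, against 5.77% of all genes tested without it. Without M49, 8, 3, 4, 5 and 7 genes of these 5 lists passed the adjusted edgeR threshold, all higher, against 3.47% of all genes tested in that comparison. None of the 29 mitochondrial members passed without M49, and 2 were at an unadjusted p under 0.05, against 23.4% of all genes. The hepatocyte marker sum given above was higher in formoterol livers as well, with 4 of its 10 genes higher at an unadjusted p under 0.05. At that p, 2 of 10 macrophage and Kupffer cell markers and 1 of 10 endothelial markers were lower and 0 were higher. Of 10 stellate cell and fibroblast markers, 0 were at that p in either direction, against 14.6% of all genes tested. The part of cell composition in these values was not tested.

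Library by library, the mitochondrial and nuclear genes of the respiratory chain did not move alike. The mean deviation of log2(CPM + 1) from the average of the 9 libraries was −0.69, −0.17, −0.56, −0.002 and 0.91 for the 5 mitochondrial genes with no near copy in the formoterol livers M46 to M50, and 0.11, 0.42, 0.22 and −0.23 in the vehicle livers M56 to M60. For the 37 nuclear complex I genes it was 0.48, 0.19, 0.44, −0.06 and 0.06 in formoterol livers, and −0.76, −0.21, −0.21 and 0.07 in vehicle livers. M46 and M48 were the libraries with the highest nuclear and the lowest mitochondrial values, M50 was far above average only in mitochondrial genes, and M56 was far below average only in nuclear genes. Both sets are given here as TMM-normalised CPM of the same libraries, and whether a high value of 1 set lowers the other on that scale was not tested. No test was made of the difference between the sets.

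**Figure D5:**
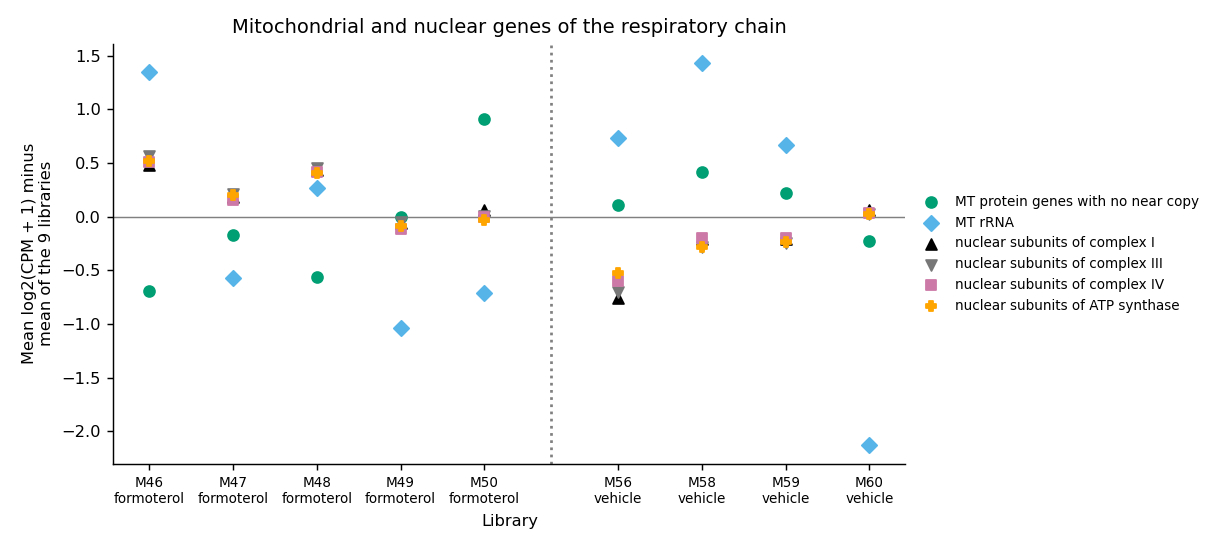
Mean deviation of log2(CPM + 1) from the average of the 9 libraries, per library, for the 5 mitochondrial protein genes with no near copy, the 2 rRNAs and the nuclear subunits of complexes I, III and IV and ATP synthase, with formoterol livers left of the dotted line. The nuclear subunits are above average in M46 (0.48 for complex I) where the mitochondrial genes are below (−0.69), and in M50 the mitochondrial genes stand at 0.91 with complex I at 0.06.

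The mitochondrial aminoacyl-tRNA synthetases, nuclear enzymes that charge the mitochondrial tRNAs, held 1 gene with a large difference. Lars2, the leucine enzyme, was at 13.7, 10.3, 14.1, 13.2 and 12.1 CPM in formoterol livers and 73.7, 166, 98.4 and 10.9 CPM in vehicle livers. The formoterol livers were alike, whereas 3 vehicle livers were several times higher and M60 was as low as the formoterol livers. The log2 fold change was −2.78 ± 0.61 SE (edgeR adjusted p = 0.167), and without M60 it was −3.15 ± 0.23 and passed (adjusted p = 4.81e-05). M60 was the lowest vehicle library for Lars2, so leaving it out had to widen the difference, and that pass is no separate support. DESeq2 called Lars2 with all 9 libraries (adjusted p = 0.00262), against 2.79% of all genes given an adjusted p. Limma-voom with sample quality weights also called it (adjusted p = 0.016), against 10.5% of all genes tested. Vehicle library M60 was also the lowest of all 9 for both rRNAs, while M56, M58 and M59 were the 3 highest for mt-Rnr1. Formoterol library M46, with Lars2 at 13.7 CPM, was however the highest of all 9 for mt-Rnr2 (8101 CPM). Its mt-Rnr1 level was 2146 CPM, against 2364 CPM in M56, where Lars2 was at 73.7 CPM. Any link between the rRNA and Lars2 values was not tested. Of the 22 synthetases tested, 3 were at an unadjusted p under 0.05 with all libraries, against 14.6% of all genes tested. Beside Lars2 they were Tars2 (18.0 ± 1.59 CPM in formoterol livers, 13.4 ± 1.54 CPM in vehicle livers) and Nars2 (17.5 ± 4.90 CPM in formoterol livers, 12.1 ± 2.44 CPM in vehicle livers), both higher, with edgeR adjusted p of 0.223 and 0.283.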

How the data were processed

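Poly(A) RNA of whole liver was measured in 9 libraries. The authors deposited 1 table of raw counts per Ensembl gene, whole numbers with no normalisation, with gene positions on mm39. The submitters' processing notes name HISAT2 2.0.5 as the aligner, mm39 as the build and DESeq2 without a version. Not given in the sources used here are the counting program, its strand setting, its treatment of reads with several matches and the annotation. Per the labels' protocols, RNA was treated with DNase on the column and cDNA was primed at random from fragmented poly(A) RNA.

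Columns are named by animal code and group suffix, without replicate numbers. The 5 columns with a suffix ending in F (M46 to M50) were read as formoterol and the 4 ending in D (M56, M58, M59 and M60) as vehicle (DMSO), which also matches the group sizes. Every direction rests on that reading. A library was taken to be a mouse, since the design text counts mice. Otherwise p-values would measure only technical spread.

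Genes were kept with filterByExpr (minimum count 10, minimum total 15), which left 13042 genes. Formoterol was compared with vehicle with edgeR 4.0.16 in R 4.3.3 (TMM factors, robust quasi-likelihood test), and p-values were adjusted by Benjamini-Hochberg over all genes tested with a threshold of 0.05. SE is the log2 fold change divided by the root of the F statistic. Alternatives were DESeq2 1.42.0, voom from limma 3.58.1 with and without sample quality weights, other scalings and filters, addition of the counts of nuclear copies, and leaving out each library. Copies were sought with blastn 2.17.0 against GENCODE vM21 transcripts (GRCm38), with at least 85% identity over 40 bases, and copies of at least 99% identity were called near-identical. No genome sequence was used. Named genes are all members, the up to 3 genes with the smallest p in each nuclear list, a fixed set of mitochondrial regulators and the 3 most counted copies. Copies named beyond these, and the tRNA sequences shown, were chosen after their values were seen. The members, lists, ratios and alternatives were chosen with earlier results of these data known.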

Additional observations from a re-analysis of the deposited data

Results flagged for a closer look

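A library was picked out where it lay far from the others of its group by Dixon's test at the 95% level. Of 72 groups of values tested, 15 were picked out, and chance gives about 1 in 20. The libraries of 1 animal enter all these tests, so they are not independent.

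Formoterol library M50 was far above the other formoterol livers for mt-Co1 (180011 CPM), mt-Cytb (81814 CPM), mt-Nd2 (50402 CPM), mt-Nd4 (45229 CPM), mt-Nd1 (36220.5 CPM), mt-Co2 (3069 CPM), mt-Nd4l (492 CPM), mt-Tc (35.1 CPM) and mt-Tm (7.41 CPM). Formoterol library M46 was far above for mt-Rnr2 (8101 CPM) and for the log2 ratio of mt-Rnr2 to mt-Rnr1 (1.92). In the vehicle group, M56 was far above for mt-Atp6 (6646 CPM) and mt-Tg (1.86 CPM), and M59 was far above for mt-Nd4l (438 CPM) and far below for mt-Th (0.684 CPM).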

How the results depend on the processing

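No paired analysis was possible because the columns of the table carry no replicate numbers of the labels. Over all genes, edgeR called 0 with all libraries, 263 with no filter on low counts and 0 to 702 with 1 library left out (702 without M49, 4 without M60), while DESeq2 called 314 and limma-voom with sample quality weights 1374. Of the members, 2 were called with those weights and 0 under each of the other settings run. Members at an unadjusted p under 0.05 numbered 1 of 29 with all libraries (14.6% of all genes tested), 0 when scaled by nuclear genes (14.4%), 0 of 25 with a minimum count of 50 (17%), 2 with the counts of copies added (14.6%), 4 with limma-voom (15.6%), 9 with quality weights (28.4%), 4 with DESeq2 (15.7%) and 0 to 7 with 1 library left out (9.05 to 23.4%), 7 of them without M50 (17.7%). Genes called in the nuclear lists numbered 0 to 29 with 1 library left out (29 without M49, 1 without M60).

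Library totals alone moved the median of all genes from −0.01 to −0.16, and on that scale mt-Tp was at −0.11, mt-Tn at −0.15, mt-Ty at −0.20 and mt-Tq at −0.094, opposite in sign to the TMM values, as that shift alone would make them. Log2 fold changes also changed sign for mt-Nd2, to 0.0019 with DESeq2 size factors or DESeq2. For mt-Ty they were −0.032 with upper-quartile factors and −0.0018 when scaled by nuclear genes. With limma-voom, mt-Rnr2 was at 0.016, mt-Th at −0.20, mt-Tn at −0.035, mt-Ty at −0.14 and mt-Tq at −0.38. With quality weights, mt-Tn was at −0.23, mt-Ty at −0.33, mt-Tg at −0.012 and mt-Tq at −0.16. The cause of these changes was not tested. With 1 library left out, the values ranged from −0.35 to 0.018 for mt-Nd1, −0.33 to 0.090 for mt-Nd2, −0.40 to 0.066 for mt-Co1, −0.32 to 0.57 for mt-Co2, −1.07 to 0.17 for mt-Nd4l, −0.44 to 0.073 for mt-Nd4, −0.35 to 0.068 for mt-Cytb, −0.81 to −0.15 for mt-Nd5, −0.55 to −0.007 for mt-Nd6, −1.27 to −0.43 for mt-Atp6, −0.83 to 0.56 for mt-Rnr2, −0.14 to 0.38 for mt-Tp, −0.57 to 0.040 for mt-Te, −0.52 to 0.22 for mt-Tc, −0.38 to 0.61 for mt-Th, −0.35 to 0.20 for mt-Tn, −0.42 to 0.19 for mt-Ty, −0.12 to 0.56 for mt-Tg and −0.37 to 0.32 for mt-Tq. The difference in the share of all counts on MT ranged from −8.41 to −2.86 percentage points. The difference in rRNA share of mitochondrial counts ranged from −0.67 to 0.67 percentage points, and it was −0.67 without M46 and −0.19 without M60. Depth limits the tRNAs, which had from 0 to 7090 counts per library, and the near-identical copies limit the low protein genes at any depth.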
